A study of Mus musculus with 26 samples.

Results

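The interferon gamma inducible GTPases are a group of large guanine nucleotide binding proteins that cells make when interferon gamma reaches them. The genes described here are the guanylate binding proteins Gbp2, Gbp3 and Gbp7, the immunity related GTPases Irgm1, Irgm2, Igtp, Iigp1 and Tgtp1, the transcription factor Irf1 and the signalling inhibitor Socs1. Members were all probe sets, the groups of short probes that an array holds for a transcript, whose annotation named only one of these 10 genes. That gave 12 of the 45101 probe sets on the array, for 9 of the 10 genes. Tgtp1 had no probe set of its own, because the only one that names it also names the near-identical Tgtp2. Of the 18194 genes with a probe set of their own, 12377 were tested, and 8 of them were members. Socs1 was not above background and was not tested.

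Gene expression was measured in lacrimal glands, the glands that make tears, from males of the mouse strain C57BL/6.NOD-Aec1Aec2, with 26 Affymetrix arrays. By the labels, the groups were 4 arrays at 4 weeks of age, before disease, 6 at 8 weeks, an early pre-clinical stage, and 6 at 12 weeks, when leukocytes first enter the gland. A further 5 arrays were of 16 weeks, the early clinical phase, and 5 of 20 weeks, when gland secretion starts to fail. All groups carry Idd3 (chromosome 3) and Idd5 (chromosome 1) of the NOD mouse on a C57BL/6 background, as a model of Sjögren's syndrome. No array of a strain without these regions was analysed here, so age and disease stage cannot be told apart. The labels call each array a biological replicate without stating how many mice it stands for, so the p-values reflect only how far these samples spread. The arrays measured whole glands, in which fewer cells of a type and less RNA per cell cannot be told apart.

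Interferon gamma, made mainly by T cells and NK cells, binds a receptor that signals through the Jak1 and Jak2 kinases. The first genes to respond carry GAS elements in their promoters, and one of them is Irf1, whose protein in turn binds ISRE elements in the promoters of a later set of genes. The guanylate binding proteins and the immunity related GTPases assemble on vacuoles that hold microbes, and the Irgm proteins regulate the other immunity related GTPases and keep them off the cell's own membranes. Socs1 inhibits the Jak kinases and so limits the response.

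The promoters of the members are shown because they carry the elements that define this response. RefSeq promoter sequences of GRCm38.p6, from 250 bases before to 50 after each transcription start, were taken by symbol for 9 of the 10 members. They were searched on both strands for a GAS-like motif, TTCNNNGAA, and an ISRE-like motif, GAAA followed after any 2 bases by another GAAA. The promoter of Iigp1 was left out of this search, so the motif counts of the members cover the other 9 genes. Of these 9 genes, 8 had the ISRE-like motif, 5 had the GAS-like motif and 4 had both. Among all 32851 promoters in the same table, 3.44% held the ISRE-like motif, 8.3% the GAS-like motif and 0.454% both. These shares count each promoter, while a member gene was counted if any of its annotated promoters held the motif. Gbp3 and Irf1 each had a second annotated start with neither motif. The bases from -120 to -1 before the start are printed below for 6 members, 5' to 3' on the gene's own strand, with every match to either motif in capitals. A match is a run of letters, not a measured binding site.

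Gbp2, on chromosome 3 (chr3:142620543-142620662, plus strand): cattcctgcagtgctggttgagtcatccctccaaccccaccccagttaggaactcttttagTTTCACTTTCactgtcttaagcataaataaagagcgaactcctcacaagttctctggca
Gbp7, on chromosome 3 (chr3:142530216-142530335, plus strand): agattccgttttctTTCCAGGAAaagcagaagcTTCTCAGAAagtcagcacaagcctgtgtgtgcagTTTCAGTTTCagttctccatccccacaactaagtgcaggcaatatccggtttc
Irf1, on chromosome 11 (chr11:53769894-53770013, plus strand): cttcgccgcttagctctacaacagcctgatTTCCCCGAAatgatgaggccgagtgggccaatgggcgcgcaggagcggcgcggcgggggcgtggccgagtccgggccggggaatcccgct
Igtp, on chromosome 11 (chr11:58199436-58199555, plus strand): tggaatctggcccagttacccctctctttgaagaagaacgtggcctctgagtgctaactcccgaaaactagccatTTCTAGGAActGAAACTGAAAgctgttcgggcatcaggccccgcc
Irgm2, on chromosome 11 (chr11:58214857-58214976, plus strand): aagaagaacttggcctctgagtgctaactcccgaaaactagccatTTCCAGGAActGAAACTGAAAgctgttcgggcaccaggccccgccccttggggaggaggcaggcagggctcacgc
Irgm1, on chromosome 11 (chr11:48871421-48871540, minus strand): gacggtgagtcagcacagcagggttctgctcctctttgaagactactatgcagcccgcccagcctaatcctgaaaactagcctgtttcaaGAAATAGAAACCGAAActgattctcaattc

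Irf1 held a GAS-like motif at -90 to -82 and no ISRE-like motif, and its second annotated start had neither. Gbp2 held the ISRE-like motif alone, at -59 to -50, read on the opposite strand. Gbp7 held 2 GAS-like motifs, at -106 to -98 and -87 to -79, before an ISRE-like motif at -53 to -44. In Igtp the GAS-like motif ended 2 bases before the ISRE-like motif, which lay at -34 to -25. The same arrangement was found in Irgm2, with the ISRE-like motif at -64 to -55, and in Tgtp1, with it at -77 to -68. Only 5 of the 32851 promoters, or 0.0152%, had that spacing, and 3 of them belonged to the members counted here. With the starts shifted by 30 bases, 87 of 90 overlapping bases of the Igtp and Irgm2 windows were identical, so this pair does not count as independent. Irgm1 held a pair of overlapping ISRE-like motifs between -30 and -15, as did Gbp3 between -45 and -30 and Socs1 between -83 and -68.

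In RefSeq's GRCm38.p6 annotation, the guanylate binding proteins among the members lie close together on chromosome 3, Gbp7 at 142530336 to 142550151, Gbp3 at 142560016 to 142573213 and Gbp2 at 142620663 to 142638008. Idd3 also lies on chromosome 3, but the labels do not bound the NOD-derived region, so the allele at these genes is not stated. On chromosome 11, Irgm1 lies at 48865245 to 48871420, Tgtp1 at 48985329 to 48992246, Irf1 at 53770014 to 53778374, and Igtp, at 58199556 to 58207592, is followed by Irgm2 at 58214977 to 58222783.

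Values are log2 expression as the authors deposited them, and a probe set's level is not set against another's. The medians of the arrays lay between 2.94 and 3.22, and an age mean is called near background when it is under 4.04, which is 1 log2 unit above a typical array median of 3.04. A log2 difference of 1 is a 2-fold difference. The lacrimal genes fixed as a tissue check, such as Pip and Ltf, averaged 9.33 to 12.1 on the arrays. Salivary gland genes ranged more widely between arrays, from a mean of 4.72 on 8 weeks replicate 5 to 12.6 on 4 weeks replicate 1. On the latter array the lacrimal genes averaged 11.1. The arrays of 4 weeks, used in every comparison with that age, ranged from 5.55 to 12.6 for the salivary genes. The part of salivary tissue in the results below was not tested. On 2 arrays, 20 weeks replicate 1 and 16 weeks replicate 4, log2 values were compressed, with an SD over all probe sets of 1.36 and 1.68 against 1.78 to 2.27 on the others. Results that change without both are given beside the values.

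Expression of the members was lowest at 4 weeks for 6 of the 8 tested genes, and later ages were higher on average but uneven between arrays. The share of all genes that were lowest at 4 weeks is not given here. Gbp2 was the member that passed the test over the 5 ages and the comparison of 16 with 4 weeks. Irf1 averaged 0.64 to 0.84 higher on the log2 scale at 12, 16 and 20 weeks than at 4 weeks and did not pass. Highest means fell at 16 weeks for Gbp2, Gbp3, Gbp7, Irgm1 and Irgm2, at 12 weeks for Igtp and Irf1, and at 20 weeks for Iigp1. Without 16 weeks replicate 2 the highest mean of Gbp2 and Gbp7 was at 12 weeks and that of Irgm1 and Irgm2 at 8 weeks, and Gbp3 alone of the 5 was still highest at 16 weeks. A single array at 16 weeks, replicate 2, held the highest value of its age for all 8 members tested.

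**Figure D1:**
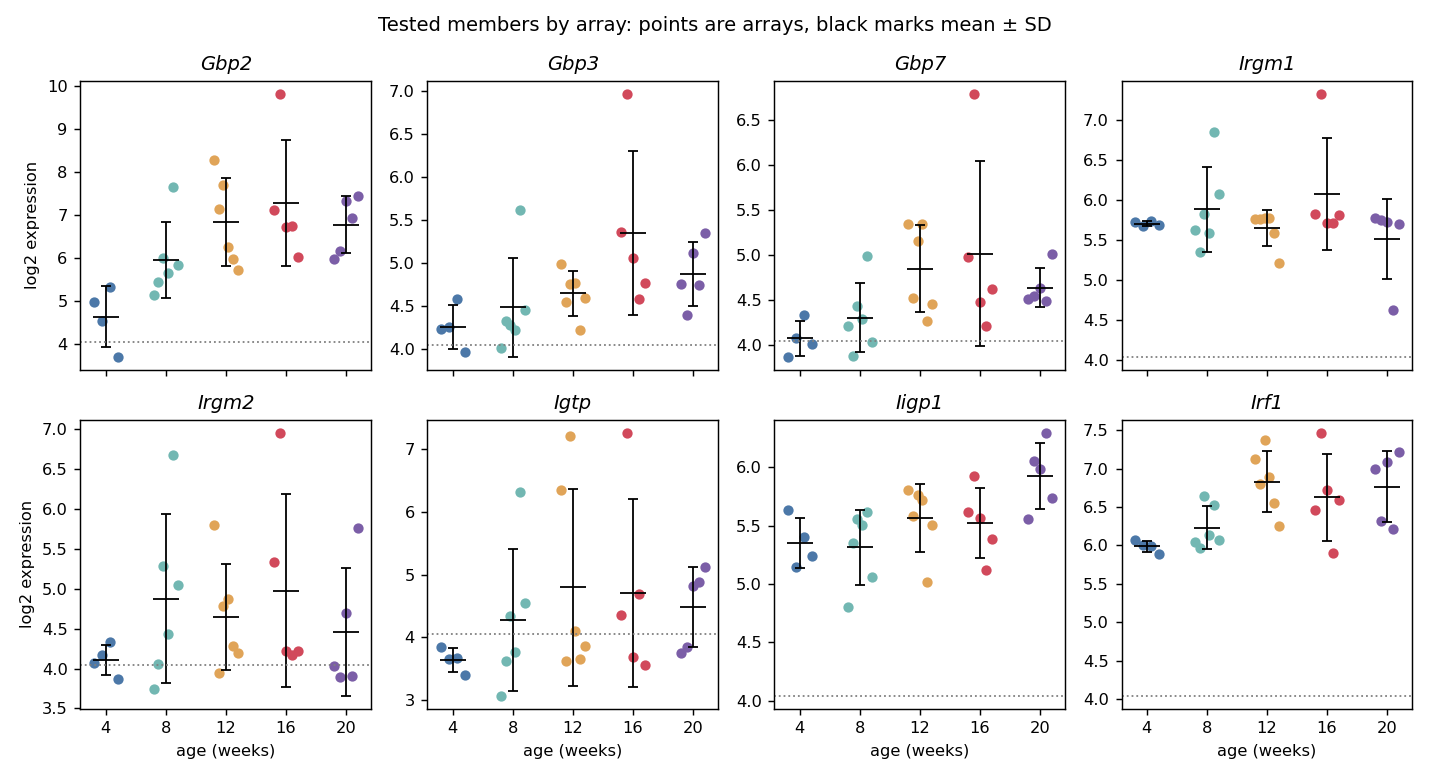
Log2 expression (vertical axis, scaled per gene) of the 8 tested members against age in weeks, with a point per array, the mean and SD in black, and the near-background limit dotted. Gbp2 at 4 weeks lies at 3.71 to 5.34, below all arrays of the 12, 16 and 20 week groups, and 16 weeks replicate 2 is the top point of its age in each panel.

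Gbp2 is a guanylate binding protein that gathers on vacuoles holding bacteria or parasites. At 4 weeks its log2 values were 4.98, 4.54, 5.34 and 3.71 (mean 4.64 ± 0.70, SD, n = 4). At 8 weeks they ran from 5.15 to 7.65 with a median of 5.74, and the mean was 5.96 ± 0.88 (SD, n = 6). Replicate 5, at 7.65, stood well above the other arrays of 8 weeks, and replicate 1, at 5.15, lay within the range of 4 weeks.

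At 12 weeks Gbp2 ran from 5.73 to 8.27 with a median of 6.69 (mean 6.84 ± 1.02, SD, n = 6). At 16 weeks its values were 7.12, 9.80, 6.72, 6.74 and 6.02 (mean 7.28 ± 1.47, SD, n = 5), and at 20 weeks 5.98, 6.17, 7.33, 6.93 and 7.43 (mean 6.77 ± 0.66, SD, n = 5). On 1435906_x_at, the Gbp2 probe set used here, every array of 12, 16 and 20 weeks was above every array of 4 weeks. The groups from 8 to 20 weeks overlapped one another. In order of mean the ages ran 4, 8, 20, 12 and 16 weeks, and without 16 weeks replicate 2 they ran 4, 8, 16, 20 and 12 weeks.

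Over the 5 ages 1 of the 8 tested members, Gbp2, was called by limma's F test (F = 5.18, Benjamini-Hochberg adjusted p = 0.0354), where 14.9% of all genes tested were called. At an unadjusted p under 0.05 there were 4 of 8 members, beside 36.9% of all genes. Gbp2 rose by 2.64 ± 0.65 (log2, SE) from 4 to 16 weeks, a 6.23-fold difference, with an adjusted p of 0.0351 in limma. This was again 1 of 8 members called, beside 1.78% of all genes, and 1.08% were called higher. The difference from 4 weeks was 2.20 ± 0.62 at 12 weeks (4.60-fold, limma adjusted p = 0.0578), 2.13 ± 0.65 at 20 weeks (4.37-fold, 0.0883) and 1.31 at 8 weeks (0.346). The comparisons with 4 weeks share the same 4 arrays, and those of 12 and 16 with 4 weeks were added after the data had been seen. Between successive later ages the Gbp2 differences were 0.89 from 8 to 12 weeks, 0.44 from 12 to 16 weeks and -0.51 from 16 to 20 weeks, with limma adjusted p of 1.00, 0.652 and 0.759. Without 16 weeks replicate 2 the last 2 turned to -0.19 and 0.12, also not called.

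The Gbp2 call was lost under several alternatives. With no filter on low values the limma adjusted p was 0.0522 over the ages and 0.0548 for 16 against 4 weeks, with averaged probe sets 0.0825 and 0.0894, and without _x and _s probe sets 0.230 and 0.285. With only the arrays of 16 and 4 weeks it was 0.130. Over the ages the limma adjusted p was 0.0526, 0.0803 and 0.0986 without 4 weeks replicate 1, 2 or 4, 0.0517 without 8 weeks replicate 4 and 0.0507 without 16 weeks replicate 1. For 16 against 4 weeks it was 0.106 and 0.137 without 4 weeks replicate 2 or 4, and 0.0626, 0.0826 and 0.0514 without 16 weeks replicate 1, 2 or 3. Without the high array, 16 weeks replicate 2, the difference was 2.01. Conversely, Gbp2 at 12 against 4 weeks was called without 8 weeks replicate 5 (0.0473), 16 weeks replicate 2 (0.0208) or 20 weeks replicate 1 (0.0315). At 20 against 4 weeks it was called without 16 weeks replicate 2 (0.0369) or 20 weeks replicate 1 (0.0464). Without both compressed arrays it was called at 12, 16 and 20 weeks against 4, with adjusted p of 0.0285, 0.0142 and 0.0399.

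A second Gbp2 probe set, 1418240_at, is also annotated to Gbp2 alone. It lay at 2.75, 2.72, 2.79 and 2.67 at 4 weeks, near background, and age means of 3.83, 4.56, 4.48 and 3.89 followed at 8, 12, 16 and 20 weeks. Within its 4 week range lay 8 weeks replicate 2 at 2.68, 16 weeks replicate 3 at 2.73 and 20 weeks replicate 2 at 2.77. Only at 12 weeks were all its arrays above those of 4 weeks. Its highest arrays were 16 weeks replicate 2 at 7.18, 8 weeks replicate 5 at 6.30 and 12 weeks replicate 3 at 5.93. The first of these was also the highest for 1435906_x_at, the brighter probe set used above. Across the 26 arrays the pair had r = 0.85, as a description. Tested on its own, 1418240_at differed by 1.75 ± 0.74 (log2, SE) between 16 and 4 weeks and was not called (limma adjusted p = 0.265, and 0.231 over the ages). The suffix _x marks probes that may also bind other sequences, and the part of that in the Gbp2 result was not tested.

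**Figure D2:**
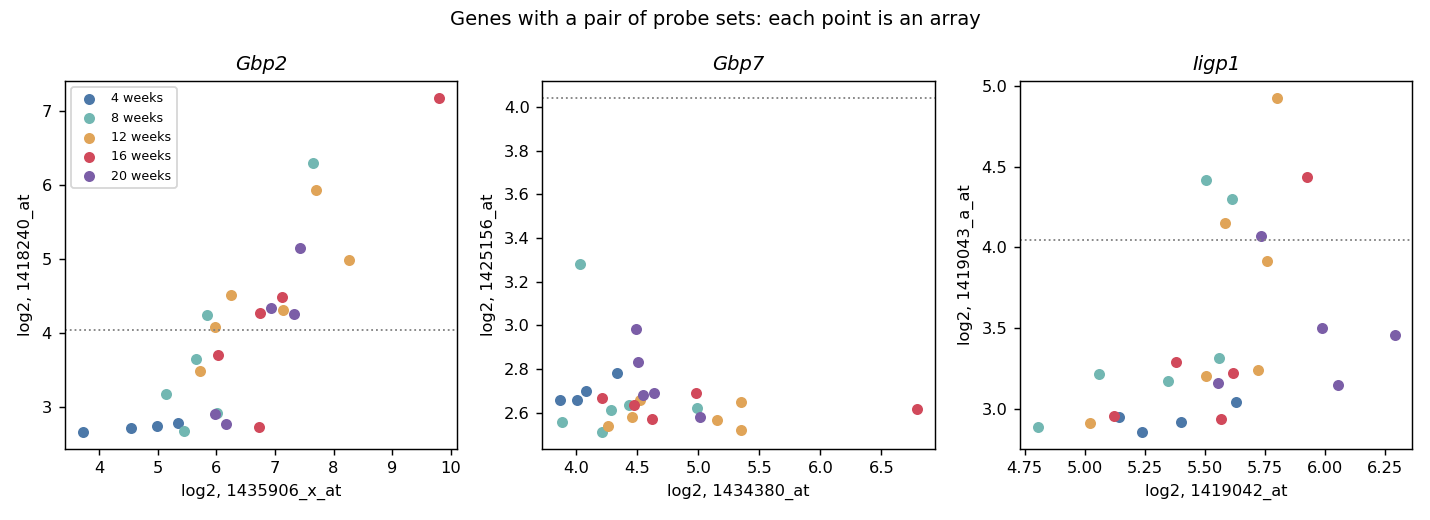
Log2 expression of the less bright probe set (vertical axis) against that of the brighter one (horizontal axis) for Gbp2, Gbp7 and Iigp1, with a point per array coloured by age and the near-background limit dotted. For Gbp2 both probe sets are highest on the same 16 week array, 9.80 and 7.18, while the second Gbp7 probe set stays between 2.51 and 3.28.

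Gbp3, a family member between Gbp7 and Gbp2 on the chromosome, had log2 values of 4.23, 4.25, 4.58 and 3.96 at 4 weeks (mean 4.26 ± 0.25, SD, n = 4). At 16 weeks they were 5.36, 6.96, 5.06, 4.58 and 4.77 (mean 5.34 ± 0.95, SD, n = 5), the highest age mean. The 16 week values overlapped those of 4 weeks at 4.58, and replicate 2 lay farthest above. Means at 8, 12 and 20 weeks were 4.48, 4.65 and 4.87. The 16 week difference from 4 weeks, 1.09 ± 0.36 (log2, SE), was not called (limma adjusted p = 0.135). It was 0.68 without replicate 2, the high array, and not called (0.278), and 1.28 without both compressed arrays, where it was called (0.0353). Over the ages the adjusted p of Gbp3 was 0.128, and 0.0491 with quantile normalization.

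Gbp7, read by 1434380_at, had log2 values of 3.87, 4.08, 4.33 and 4.01 at 4 weeks (mean 4.07 ± 0.20, SD, n = 4), close to background. At 20 weeks they were 4.51, 4.55, 4.64, 4.49 and 5.01 (mean 4.64 ± 0.22, SD, n = 5). All 5 arrays of 20 weeks lay above all 4 of 4 weeks, yet the difference of 0.57 was not called. At 16 weeks the values were 4.98, 6.79, 4.47, 4.21 and 4.62, and the difference from 4 weeks was 0.94 ± 0.36 (log2, SE; limma adjusted p = 0.224), and 0.50 without replicate 2. Means at 8 and 12 weeks were 4.30 and 4.85. The other Gbp7 probe set, 1425156_at, was near background at every age and had r = -0.23 with the first over the 26 arrays.

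Among the immunity related GTPases 0 of the 4 tested were called by limma in any comparison, and at an unadjusted p under 0.05 there was 1 over the ages, beside 36.9% of all genes, and 0 or 1 in each comparison between ages, beside 4.96% to 21.8%. Igtp, also known as Irgm3, is a regulatory member of the family. It had log2 values of 3.85, 3.65, 3.67 and 3.39 at 4 weeks (mean 3.64 ± 0.19, SD, n = 4), near background. At 12 weeks it ran from 3.61 to 7.22 with a median of 3.98, and at 16 weeks it lay at 4.35, 7.26, 3.69, 4.68 and 3.56. Arrays with a high Igtp value were single ones: 16 weeks replicate 2 at 7.26, 12 weeks replicate 3 at 7.22, 12 weeks replicate 1 at 6.35 and 8 weeks replicate 5 at 6.33. The remaining arrays reached at most 5.12, on 20 weeks replicate 5, and the SD at 12 weeks was 1.57. Its difference from 4 weeks was 1.07 ± 0.77 at 16 weeks (log2, SE; limma adjusted p = 0.642), and 0.43 without 16 weeks replicate 2.

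Irgm2, the neighbour of Igtp with nearly the same promoter, had log2 values of 4.08, 4.17, 4.33 and 3.87 at 4 weeks (mean 4.11 ± 0.19, SD, n = 4). At 8 weeks it ran from 3.74 to 6.68 with a median of 4.74, and at 16 weeks it was 5.33, 6.95, 4.22, 4.17 and 4.22. The high arrays were 16 weeks replicate 2, 8 weeks replicate 5, 12 weeks replicate 1 at 5.80 and 20 weeks replicate 5 at 5.76. Ages overlapped throughout, and the difference of 0.87 ± 0.57 between 16 and 4 weeks was not called (limma adjusted p = 0.586), and it was 0.37 without 16 weeks replicate 2. Over the 26 arrays Irgm2 and Igtp had r = 0.78.

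Irgm1, a regulator of the other immunity related GTPases, was close to level on the arrays of 4 weeks, at 5.72, 5.68, 5.74 and 5.69 (mean 5.71 ± 0.03, SD, n = 4). Most later arrays lay at the same log2 level, and the age means from 8 to 20 weeks were 5.89, 5.65, 6.08 and 5.52. Only 3 arrays lay above 6: 16 weeks replicate 2 at 7.33, 8 weeks replicate 5 at 6.85 and 8 weeks replicate 6 at 6.08. The lowest was 20 weeks replicate 4 at 4.62. Its limma adjusted p over the ages was 0.44. Without 8 weeks replicate 5 and 16 weeks replicate 2, its correlation with the mean profile of the members, described further on, went from 0.68 to 0.20.

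Iigp1, an effector GTPase that loads onto parasite vacuoles, was the member whose mean was highest at 20 weeks. Probe set 1419042_at had log2 values of 5.63, 5.14, 5.40 and 5.24 at 4 weeks (mean 5.35 ± 0.21, SD, n = 4) and of 5.56, 6.05, 5.99, 6.29 and 5.73 at 20 weeks (mean 5.92 ± 0.29, SD, n = 5). The groups overlapped, since 20 weeks replicate 1, a compressed array, was below 4 weeks replicate 1. The difference was 0.57 ± 0.19 (log2, SE), not called with all arrays (limma adjusted p = 0.134). It was 0.66 and called without 20 weeks replicate 1 (0.0482) and without both compressed arrays (0.0314), and with quantile normalization it was 0.93 and called (0.0483). Over the ages its adjusted p was 0.089 with all arrays, 0.0354 without both compressed arrays and 0.0133 with quantile normalization. A second probe set, 1419043_a_at, averaged 2.94 to 3.72 by age, all near background, and had r = 0.47 with the first.

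The probe set shared by Tgtp1 and Tgtp2, whose names stand for T cell specific GTPase, is given beside the members without a test as one of them. The name is not read here as a source in T cells. Its log2 values at 4 weeks were 4.01, 4.27, 4.05 and 3.49, and its age means were 3.95, 4.26, 4.71, 4.51 and 4.27 from 4 to 20 weeks. Its highest arrays were 12 weeks replicate 4 at 6.30, 16 weeks replicate 2 at 5.98 and 8 weeks replicate 5 at 5.50. Its signal cannot be divided between the pair of genes.

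Irf1, a transcription factor that acts on the GTPase genes, was nearly level at 4 weeks, with log2 values of 6.07, 6.00, 6.00 and 5.89 (mean 5.99 ± 0.07, SD, n = 4). At 8 weeks it ran from 5.96 to 6.64 (median 6.11, mean 6.23 ± 0.28, SD, n = 6), and at 12 weeks from 6.25 to 7.37 (median 6.84, mean 6.83 ± 0.40, SD, n = 6). All 6 arrays of 12 weeks were above all 4 of 4 weeks, while 8 weeks overlapped both.

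At 16 weeks Irf1 lay at 6.46, 7.46, 6.72, 5.90 and 6.59 (mean 6.63 ± 0.56, SD, n = 5), and at 20 weeks at 6.99, 6.31, 7.09, 6.22 and 7.22 (mean 6.77 ± 0.46, SD, n = 5). The 20 week arrays all lay above those of 4 weeks, and 16 weeks replicate 4, a compressed array, lay within the 4 week range. Irf1 was 0.84 ± 0.25 (log2, SE) higher at 12 than at 4 weeks, or 1.79-fold, with a limma adjusted p of 0.0719. At 20 weeks the difference was 0.78 ± 0.26 (1.71-fold, 0.135), at 16 weeks 0.64 ± 0.26 (0.267), or 0.43 without replicate 2, and at 8 weeks 0.24 ± 0.25 (0.603). From 8 to 12 weeks it was 0.60 ± 0.23 (0.764). With quantile normalization the Irf1 difference from 4 weeks was 0.37 at 12 weeks and 1.19 at 20 weeks, and neither was called.

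Over the 5 ages the limma adjusted p of Irf1 was 0.0632. It was under the threshold without 12 weeks replicate 6 (0.0423), 16 weeks replicate 2 (0.0363), 16 weeks replicate 4 (0.0295) or 20 weeks replicate 4 (0.047). Its 12 against 4 weeks comparison was called without 16 weeks replicate 2 (0.0471), 16 weeks replicate 4 (0.0491) or 20 weeks replicate 1 (0.0428). Without both compressed arrays these adjusted p were 0.0295 and 0.0241.

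Socs1, the inhibitor of the Jak kinases, lay between 1.41 and 1.62 on all 26 arrays and above the median of its array on 0 of 26, so its probe set was near background at every age.

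Set side by side, the comparisons with 4 weeks called 0 of 8 members at 8 weeks (1.36% of all genes called), 0 at 12 weeks (2.71%), 1 at 16 weeks and 0 at 20 weeks (2.21%). Between successive ages 0 of 8 were called from 8 to 12 weeks (0.0162% of all genes), 12 to 16 weeks (2.98%) and 16 to 20 weeks (0.0162%) by limma at a Benjamini-Hochberg adjusted p under 0.05. At an unadjusted p under 0.05 there were 1, 3, 4 and 3 of 8 at 8, 12, 16 and 20 weeks against 4, beside 14.1%, 21.8%, 13.3% and 14.6% of all genes. In each successive step there was 1 of 8, beside 4.96%, 20.9% and 8.14% of all genes. The median log2 difference of the members from 4 weeks was 0.24 at 8 weeks, 0.66 at 12, 0.90 at 16 and 0.59 at 20, beside 0.03, 0.09, -0.01 and 0.01 for all genes. The mean was higher than at 4 weeks for 7, 7, 8 and 7 of 8 members, beside 52.5%, 56.3%, 47.3% and 52.4% of all genes. The exceptions among the members were Iigp1 at 8 weeks and Irgm1 at 12 and 20 weeks. With quantile normalization, Irgm1 and Irf1 at 8 weeks and Iigp1 at 12 weeks had a lower mean than at 4 weeks, with differences of -0.14, -0.13 and -0.11, and Irgm1 at 20 weeks a higher one, with 0.12. With each array centred on its median, Iigp1 at 8 weeks and Irgm1 at 12 weeks were higher, by 0.03 and 0.02. None of these values was called under any of the scalings. From 16 to 20 weeks the members' median was -0.43, beside 0.01 for all genes, with 6 of 8 lower. In that step 2 of 8 members were higher, beside 52.1% of all genes. Without 16 weeks replicate 2 the median from 4 to 16 weeks was 0.43, again with 8 of 8 higher, and that from 16 to 20 weeks was 0.09, with 3 of 8 lower.

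Every array of the later age was above every array of 4 weeks for Gbp2 and Irf1 at 12 weeks, for Gbp2 at 16 weeks and for Gbp2, Gbp7 and Irf1 at 20 weeks. That is 2, 1 and 3 of 8 members, beside 4.99%, 4.31% and 1.58% of all genes. Each gene is read here by its brighter probe set, and 1418240_at of Gbp2 overlapped 4 weeks at 16 and 20 weeks.

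**Figure D3:**
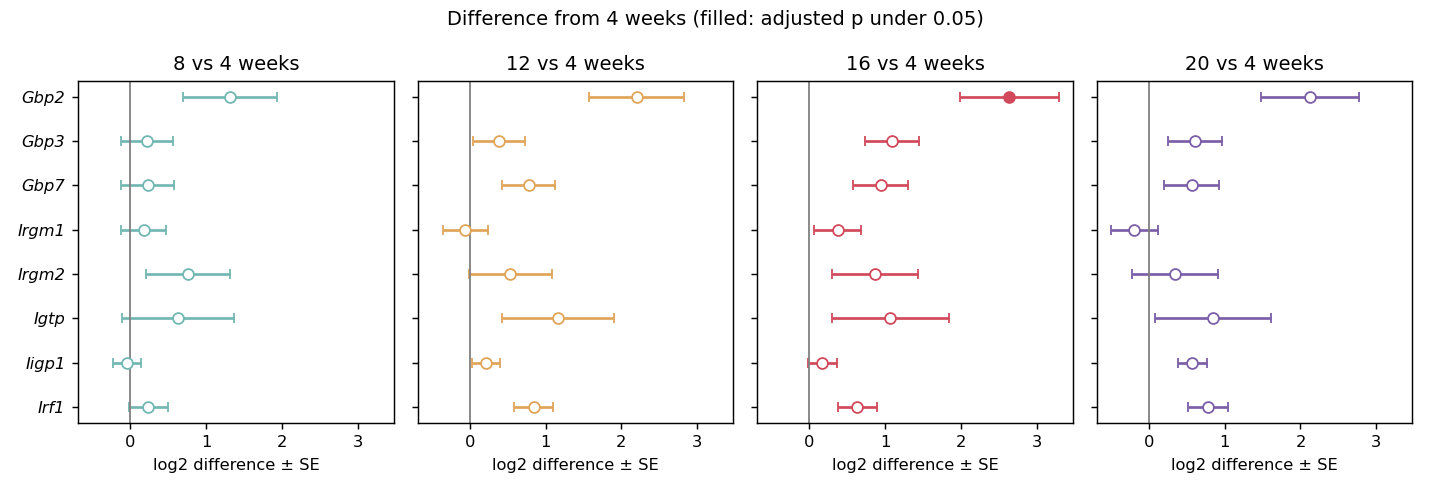
Log2 difference from 4 weeks (horizontal axis, bars are the SE from limma) for each tested member at 8, 12, 16 and 20 weeks, with called differences filled. Gbp2 at 16 weeks, 2.64, is the filled point, and the 4 panels share the same 4 arrays of 4 weeks.

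A mean profile of the members was made by scaling each of the 8 genes to its mean and SD over the 26 arrays and averaging. Its age means were -0.75, -0.25, 0.18, 0.49 and 0.20 SD from 4 to 20 weeks, and its age medians -0.73, -0.43, 0.12, -0.02 and -0.08. The highest array was 16 weeks replicate 2 at 2.68, followed by 8 weeks replicate 5 at 1.20, 12 weeks replicate 1 at 1.03, 12 weeks replicate 3 at 0.88 and 20 weeks replicate 5 at 0.79. The other 16 week arrays lay between -0.43 and 0.41 and the other 8 week arrays between -1.05 and -0.02, so in both ages 1 array stood apart. Of the 8 members, 7 had 16 weeks replicate 2 among their 3 highest arrays. On 8 weeks replicate 5 the highest value of that age was found for 7 of 8, and the exception was Irf1, which was highest on replicate 3.

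**Figure D4:**
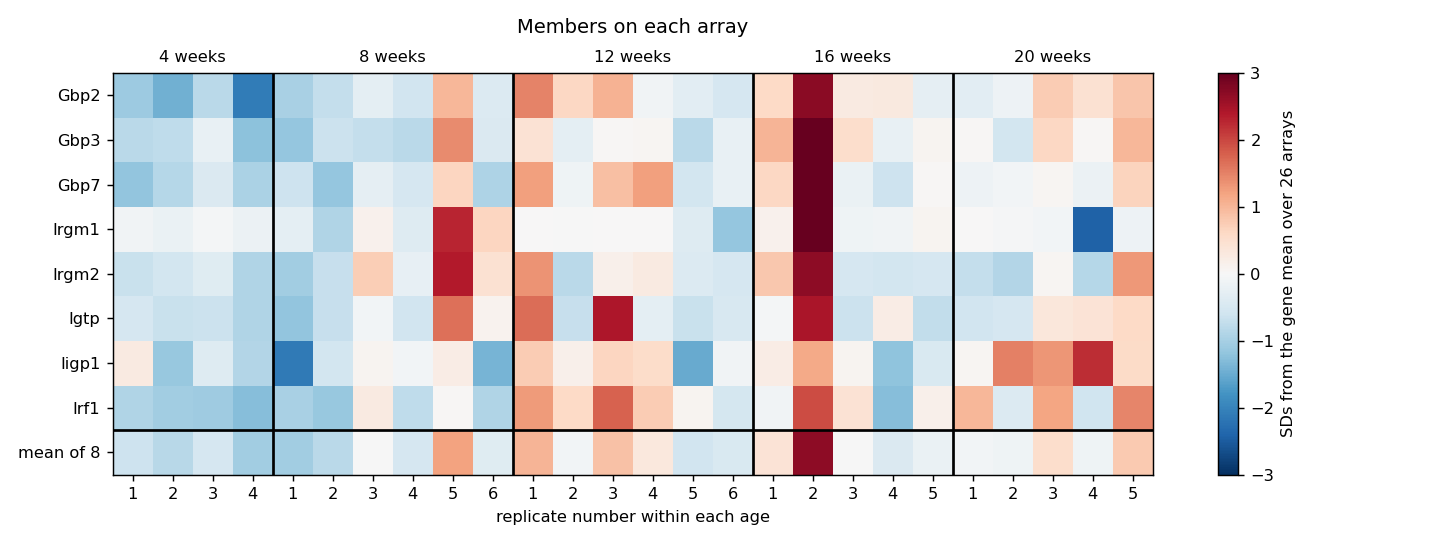
Each tested member (vertical) on each array (horizontal, by age and replicate number), coloured by its distance in SDs from the gene's mean over 26 arrays, with colours ending at 3 SDs, and the mean of the 8 genes at the bottom. The darkest column is 16 weeks replicate 2, with a mean of 2.68, and the 4 week columns lie between -1.05 and -0.50.

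Some other gene groups were also high on these arrays, and others were not. On 16 weeks replicate 2 the mean log2 level of macrophage markers was 7.12, beside 6.02 to 6.69 on the other 16 week arrays, and that of other interferon gamma targets was 6.34, beside 4.86 to 5.44. Fat cell genes were at 8.11 there (3.62 to 7.74 on the others), B and plasma cell genes at 9.51 (6.90 to 9.38) and salivary genes at 9.58 (6.13 to 8.05). Within the range of the other 16 week arrays lay T and NK cell markers (3.64), interferon gamma signalling genes (5.77) and lacrimal genes (11.5). On 8 weeks replicate 5 the type I interferon list was at 6.23, beside 4.42 to 5.59, other interferon gamma targets at 6.28, beside 5.33 to 6.15, and interferon gamma signalling genes at 5.99, beside 5.39 to 5.74. Other inducible GTPases, at 3.85, T and NK cell markers, at 3.52, and endothelial genes, at 3.92, were also above the other 8 week arrays, whose highest were 3.45, 3.47 and 3.87. Its fat cell genes, at 3.46, and macrophage markers, at 6.94, lay within the range of the other 8 week arrays, and its salivary genes, at 4.72, below it. On 12 weeks replicate 1 fat cell genes were at 7.30, beside 3.61 to 5.17, and the type I interferon list at 4.95, beside 4.47 to 4.89. Its macrophage markers (6.37), endothelial genes (3.40) and interferon gamma signalling genes (5.58) lay below the other 12 week arrays (lowest 6.59, 3.57 and 5.61). On 12 weeks replicate 3 endothelial genes (4.06), signalling genes (5.96) and other inducible GTPases (3.65) were highest of that age. Its fat cell genes (3.61) and salivary genes (8.96) were lowest. The part of these cell types in the members' values was not tested.

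The members varied together across arrays. The 28 pairs of tested members had Pearson r from 0.00452 to 0.87 over 26 arrays, with a median of 0.67, beside a median of 0.02 for all pairs of genes tested. With each age's mean removed the median was 0.72 and the range 0.23 to 0.90. Iigp1 was the least alike, and the 21 pairs without it had r of 0.40 to 0.87 with a median of 0.75. Pairs share arrays, tissue makeup and the 2 high arrays, so these values are descriptions. Correlation with the mean profile, which each gene helps to form, was 0.93 for Gbp7, 0.92 for Gbp2 and Gbp3, 0.87 for Igtp, 0.86 for Irgm2, 0.81 for Irf1, 0.68 for Irgm1 and 0.59 for Iigp1.

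The genes outside the members most like the mean profile over the 26 arrays were Gbp6 (r = 0.82), another guanylate binding protein, Lgals9 (0.78), Psmb8 (0.72), a subunit of the immunoproteasome, Pck1 (0.72), Nampt (0.71), Car3 (0.71), Psmb9 (0.71), also of the immunoproteasome, and AW112010 (0.70). In all, 112 of 12369 genes had r over 0.5. Without 8 weeks replicate 5 and 16 weeks replicate 2 r was 0.57 for Gbp6, 0.55 for Pck1, 0.52 for Psmb8 and 0.51 for Lgals9. It was 0.64 for Car3, 0.45 for Psmb9 and 0.43 for Nampt, while AW112010 stayed at 0.69. Lgals9 and Psmb9 were near background at every age, with means of 2.43 to 2.94 and 3.32 to 3.86. AW112010 was the one of these 8 called over the ages (limma adjusted p = 0.0147), with age means of 3.32, 3.83, 4.47, 5.35 and 5.45. Car3 and Pck1, genes of fat tissue, reached 11.7 and 7.74 on 16 weeks replicate 2, where fat cell genes were high. On 8 weeks replicate 5 they were at 4.60 and 3.55.

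Upstream of the members, Ifng itself lay between 2.55 and 3.07 on all 26 arrays, near background, and was not tested. Of 15 listed genes of interferon gamma signalling, 14 had a probe set and 12 were tested. Of these 1 was called over the ages, beside 14.9% of all genes. That gene was Irf8, a factor of macrophages and B cells (limma adjusted p = 0.0293), with age means of 3.50, 4.50, 4.91, 3.56 and 3.18. In the comparisons between ages 0 of 12 were called by limma. At an unadjusted p under 0.05 there were 0 to 3, beside 4.96% to 21.8% of all genes. The receptor genes Ifngr1 and Ifngr2 averaged under 4.04 at every age, while Jak1 and Jak2 averaged 6.27 to 7.49 and 5.90 to 6.38. Of 16 markers of T and NK cells, the main source of interferon gamma, 14 were near background at every age. Over the ages 1 of the 5 tested was called, Eomes (limma adjusted p = 0.0441), beside 14.9% of all genes.

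Among 17 other listed targets of interferon gamma, 13 were tested and 4 were called over the ages, beside 14.9% of all genes. All 4 belong to antigen presentation by class II molecules: H2-Ab1 (limma adjusted p = 0.000502), H2-Eb1 (0.00278), H2-Aa (0.00374) and the invariant chain Cd74 (0.0069). They rose from 4 to 8 weeks, 4 of 13 listed targets, beside 0 of 8 members and 1.36% of all genes called in the same comparison. H2-Ab1 averaged 5.51 at 4 weeks and 9.02 at 8 weeks, a log2 difference of 3.51 ± 0.51 (SE; limma adjusted p = 0.00066). Class II genes are also expressed constitutively by B cells. Of the tested macrophage markers, 7 of 14 were called higher at 8 than at 4 weeks. The part of either cell type in the class II differences was not tested. The chemokine gene Cxcl9, a target of interferon gamma that draws T cells, was highest on 16 weeks replicate 2 at 6.10 and reached 5.16 on 8 weeks replicate 5. Cxcl10 was highest on 8 weeks replicate 5 at 5.92.

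Of 14 other interferon inducible GTPases, 6 had a probe set and 4 were tested, and limma called 0 in any comparison, with 0 or 1 at an unadjusted p under 0.05. In 5 of the 6 all age means were near background, and Gbp8 was among them, with means of 3.37 to 3.67. Gbp6 was the exception, with means of 3.38, 3.63, 3.68, 4.49 and 4.08 and a highest value of 6.45 on 16 weeks replicate 2. The type I interferon list, whose promoters often carry ISRE elements too, had 15 tested genes of 20. Of these limma called 0 in any comparison, with 3 over the ages and 1 to 5 between ages at an unadjusted p under 0.05. The shares of all genes under that p were 36.9% over the ages and 4.96% to 21.8% between ages. The largest F values were those of Ifit1 (4.36, limma adjusted p = 0.0571) and Usp18 (4.16, 0.0644). The mean level of this list on 16 weeks replicate 2, 5.17, was the highest of its age by a small margin, with 4.45 to 5.16 on the others.

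The cell type lists are set beside the 14.9% of all genes called over the ages. Of tested macrophage markers 7 of 14 were called, led by Lyz2, C1qb, Mpeg1 and C1qc. Lyz2 averaged 7.17, 10.8 and 10.7 at 4, 8 and 12 weeks, and Mpeg1 averaged 6.77, 8.46 and 8.75. Of B and plasma cell genes 2 of 4 were called, Igha and Jchain, and Igha averaged 6.23, 9.41, 11.60, 10.95 and 11.36 from 4 to 20 weeks. Of lacrimal genes 3 of 11 were called, Ltf, Pigr and Krt8, each lowest at 4 weeks. limma called 0 of 6 endothelial genes, 0 of 3 fat cell genes and 0 of 8 salivary genes over the ages. At an unadjusted p under 0.05 there were 2, 0 and 1, beside 36.9% of all genes. The largest F among them were those of Emcn (3.99) and Tek (3.52), Cidec (2.56) and Fabp4 (2.28), and Egf (3.20) and Prol1 (2.78). The part of these cell types in the differences of the members between ages was not tested.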

How the data were processed

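The authors deposited log2 expression in one table, with 45101 probe sets and 26 arrays. The submitters' processing notes list RMA and GCRMA with no role, so it is not stated here which of them produced the deposited log2 values. Values were used as deposited. Detection calls were not used, and arrays have no read depth, so precision depends on the number of arrays. Gene symbols came from the platform's annotation table (34958 with 1 symbol, 932 with several, 9211 with none), and the brightest probe set on average stood for each gene. A gene was tested when it lay above the array median on at least 4 arrays, which left 12377 of 18194 genes. limma 3.58.1 in R 4.3.3 (lmFit and eBayes, all 5 ages in 1 fit) gave an F test over ages and contrasts between them. P-values were adjusted by Benjamini-Hochberg over all genes tested, with a threshold of 0.05. The fit was tested on simulated data.

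The 10 members and the gene lists were chosen with earlier results of these data known. Named beside the members were, from each list, at most 4 called genes with the smallest p (with none called, the 2 with the largest F) and the 8 genes most correlated with the members' mean profile. Genes whose values are given on a high array beside it (Cxcl9, Cxcl10) or for their place in the pathway (Ifng, Ifngr1, Ifngr2, Jak1, Jak2), and Pip and Ltf, were chosen after their values were seen. Alternatives covered normalization, filter, probe set rule, array weights, replicate block, a covariate and leaving out arrays.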

Additional observations from a re-analysis of the deposited data

Results flagged for a closer look

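In 60 combinations of a probe set and an age, the highest or lowest array was compared with the nearest other array, relative to the range of the age. In 8 of them the gap was above Dixon's 95% critical value, where chance gives about 1 in 20. At 8 weeks, Gbp2 (1435906_x_at) was 7.65 on replicate 5, beside 6.01 on the next array. Gbp3 was 5.61 on the same array, beside 4.46. The second Gbp7 probe set, 1425156_at, was 3.28 on replicate 6, beside 2.64, both near background.

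Irgm1 stood out at 3 ages. It was 7.33 on 16 weeks replicate 2, beside 5.83 on the next array, while its lowest values were 5.22 on 12 weeks replicate 6, beside 5.59, and 4.62 on 20 weeks replicate 4, beside 5.70. Iigp1 (1419043_a_at) was 4.44 on 16 weeks replicate 2, beside 3.29. Gbp7 (1434380_at) was 5.01 on 20 weeks replicate 5, beside 4.64.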

How the results depend on the processing

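Of 2424 values of single members under alternatives, 0 reversed a called difference, 19 lost and 43 gained a call, and 38 changed sign while not called. The number of the 8 members called over the ages (1) became 0 with no filter, averaged probe sets per gene or no _x and _s probe sets, 3 with quantile normalization or without both compressed arrays, 5 with array weights, and 0 to 2 when 1 array was left out. From 4 to 16 weeks (1) it became 0 with no filter, with the mean of probe sets, without _x and _s probe sets or with only the arrays of those ages, 2 without both compressed arrays, 5 with array weights and 0 to 1 with 1 array left out. From 4 to 20 weeks (0) it became 1 with the array SD as a covariate, 2 with quantile normalization or without both compressed arrays, 3 with array weights and 0 to 2 with 1 array left out. From 4 to 12 weeks (0) it became 1 with a stricter filter or only the arrays of those ages, 2 without both compressed arrays, 4 with array weights and 0 to 2 with 1 array left out. From 4 to 8 weeks (0) it became 1 with array weights and stayed 0 with 1 array left out. Between 8 and 12, 12 and 16, and 16 and 20 weeks it was 0 under all alternatives run. The number of all genes called also moved, for example from 1310 to 8152 over the ages. A change in a member count is therefore not by itself a result about the members. The Gbp2 adjusted p in limma ranged from 0.000345 to 0.230 over the ages, called in 28 of 37 alternatives, and from 0.000296 to 0.285 for 16 against 4 weeks, called in 28 of 38. The estimation of array weights did not converge, 16 of the gained calls came from it, and the cause of these changes was not tested.

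With the replicate number as a block, 0 members were called over the ages and from 4 to 16 weeks. The Gbp2 adjusted p were then 0.0733 and 0.0792. Arrays of different ages with the same number did not vary together more than others. The 47 such pairs had r of -0.48 to 0.49 with a median of -0.08, and 14 were over 0.1. For the 222 pairs with other numbers r was -0.66 to 0.61 with a median of 0.02, and 78 were over 0.1. These values show no pairing by number, and whether a number marks arrays handled together was not tested.

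Over the alternatives other than leaving out 1 array, all genes called ranged from 1310 to 8152 over the ages (1847), 93 to 4557 from 4 to 8 weeks (168), 1 to 142 from 8 to 12 (2), 201 to 2795 from 12 to 16 (369), 0 to 249 from 16 to 20 (2), 4 to 3473 from 4 to 20 (273), 172 to 5373 from 4 to 12 (335) and 108 to 3352 from 4 to 16 weeks (220). Quantile normalization moved the median of all genes from 4 to 12 weeks from 0.09 to -0.03. Levels near background, as for Socs1, the second probe sets of Gbp7 and Iigp1 and Igtp at 4 weeks, limit what these arrays can show.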
